A study of Mus musculus with 8 samples.

Results

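A set of 10 nuclear genes that govern how mitochondria are made, joined, divided and removed was followed in mouse liver after acetaminophen, in males of 8 weeks and of 80 weeks of age. The genes were chosen by name as Ppargc1a, Ppargc1b, Nrf1, Tfam, Mfn1, Mfn2, Opa1, Dnm1l, Fis1 and Pink1, which are 10 of the 36666 gene names on the array. They were read by 24 of its 56605 probes, of which 20 were bright enough to be tested, at least 1 for each gene. The series holds 4 livers of each age, all taken 8 h after acetaminophen, and total RNA from each was labelled with Cy3 and hybridised to a 1-colour Agilent array of its own. All 8 livers are of the same sex and had received the same drug. The sources used here do not give the strain, the genotype or the dose, nor do they say that each array stands for a separate animal. The p-values therefore measure only how far these samples spread, which may be a technical spread. Livers without the drug were not analysed here, so an age difference at rest and an age difference in the response to the drug cannot be told apart.

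Mitochondrial biogenesis is driven by the coactivators PGC-1alpha and PGC-1beta, products of Ppargc1a and Ppargc1b, which bind nuclear receptors and other transcription factors and raise the transcription of respiratory genes. Among the factors downstream, NRF1 acts on nuclear genes and TFAM packages mitochondrial DNA and takes part in its transcription. Mitofusins and OPA1 join mitochondria, DRP1 (from Dnm1l) divides them with receptors such as FIS1, and the kinase PINK1 marks damaged ones for removal by autophagy. Acetaminophen is oxidised to a reactive metabolite that binds mitochondrial proteins in hepatocytes, and the liver is also an organ where PGC-1alpha is induced by fasting.

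Levels below are log2 intensity relative to the 75th percentile of the same array, so a level of 0 sits at that percentile. Differences are 80-week minus 8-week on this log2 scale, with the standard error (SE) of the limma model and its 95% confidence interval. Adjusted p-values are Benjamini-Hochberg values over all 17565 genes tested, with a threshold of 0.05. Levels of different probes are not set against each other. The 8 arrays shared 1 slide and 1 scan. The 8-week livers lay on row 1 of it and the 80-week livers on row 2, and the effects of row and age cannot be told apart. Between 43.3% and 50.4% of probes per array were well above background and none was saturated. On the first principal component of all genes, which held 49.1% of the variance, 8-week replicates 1 and 2 lay at -61.3 and -99.2 and the other 6 arrays at 10.2 to 47.5. The age differences of the 10 genes are therefore given with all 8 arrays and without those 2. For other named pathway genes, pathway lists, pairs and genes with a like profile, this was done where it moves the value by over 1.5 times. The rule was not applied to markers of cell types or to the pooled pathway genes outside the 10. Their age differences are with all 8 arrays unless stated, and can move by more than that.

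The 2 coactivator genes had the largest age differences of the 10, with mean levels 2.23-fold (Ppargc1a) and 3.03-fold (Ppargc1b) higher in 80-week livers. The fission gene Dnm1l was lower in all 4 of the 80-week livers than in any 8-week liver, at 0.73 of the 8-week level. The fusion genes Mfn2 and Opa1, the fission receptor gene Fis1 and the mitophagy kinase gene Pink1 had higher means at 80 weeks, by 1.18-fold to 1.54-fold. Tfam and Mfn1 had differences of 0.07 and -0.03. By the limma test, 0 of the 10 genes passed the adjusted threshold, with adjusted p from 0.298 to 0.953, against 63 of all 17565 genes tested (0.359%), of which 58 were higher and 5 lower at 80 weeks. At an unadjusted p under 0.05 there were 3 of the 10, Ppargc1a, Ppargc1b and Dnm1l, beside 14.1% of all genes. Without 8-week replicates 1 and 2 there were 0 of the 10, beside 9.02% of all genes. The median difference over the 10 genes was 0.25, with 7 above 0, against a median of 0.02 and a share above 0 of 52.0% over all genes. Without those 2 arrays the median of the 10 was 0.02, with 6 above 0, against -0.06 and 42.5% over all genes. In bulk tissue, fewer cells of a type and less RNA per cell cannot be told apart.

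**Figure D1:**
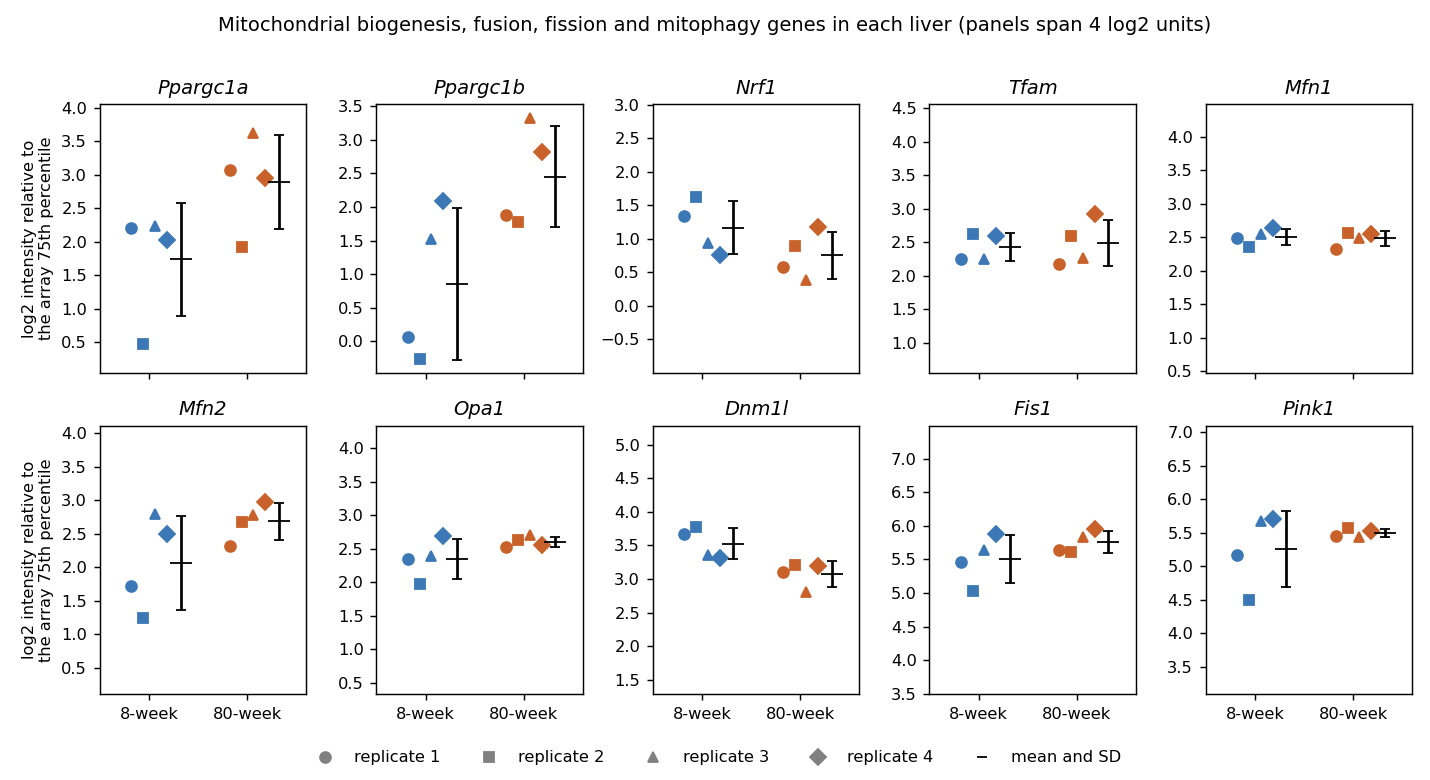
Level of each gene on each array, as log2 intensity relative to the array's 75th percentile (vertical axis, each panel spanning 4 log2 units), for 8-week (blue) and 80-week (orange) livers; symbols mark replicates 1 to 4 and the bar gives the mean and SD of 4 arrays. The 8-week points of Ppargc1b and Mfn2 split into a low pair, replicates 1 and 2, and a higher pair, the 80-week points of Dnm1l all lie under the 8-week points, and Mfn1 stays between 2.33 and 2.63 on all 8 arrays.

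Promoter windows are shown for the genes whose stretch closest to the transcription start holds a motif of a factor that acts in this pathway. The 250 bases before each RefSeq start (build GRCm38.p6) were searched on both strands for 5 motifs. Of the 10 genes, 9 had an entry, with 14 promoters in all, and Ppargc1b had none. The motifs, with the share of 32851 mouse promoter windows of that length that hold them, were GCGCANGCG for NRF1 (5.16%), CCGGAAG for ETS factors such as GABPA (6.91%), TGACGT as the core of a cAMP response element (6.47%), AAGGTCA for the estrogen-related receptors (4.08%) and the E-box CACGTG (6.02%). Below, 120 bases end just before the start, 5′ to 3′ on the gene's strand, with the match in capitals. The Ppargc1a window, chr5:51567726-51567845 on the minus strand, has the cAMP response element core 50 bases before the start on the opposite strand.
Ppargc1a: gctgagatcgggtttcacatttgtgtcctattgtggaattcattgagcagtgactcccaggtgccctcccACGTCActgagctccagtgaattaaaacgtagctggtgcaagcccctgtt
The Mfn2 window, chr4:147904662-147904781 on the minus strand, has the same core at 41 bases, and a further match lies 243 bases before the start, outside the stretch shown.
Mfn2: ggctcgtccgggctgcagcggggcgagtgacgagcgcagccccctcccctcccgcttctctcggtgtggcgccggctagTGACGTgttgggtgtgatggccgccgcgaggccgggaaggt
The windows of Tfam (chr10:71238045-71238164, minus strand), Mfn1 (chr3:32529362-32529481, plus strand) and Fis1 (chr5:136953155-136953274, plus strand) have the ETS motif 47, 44 and 18 bases before the start.
Tfam: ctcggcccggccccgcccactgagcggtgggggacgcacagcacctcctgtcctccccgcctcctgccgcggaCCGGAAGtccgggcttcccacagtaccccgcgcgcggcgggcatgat
Mfn1: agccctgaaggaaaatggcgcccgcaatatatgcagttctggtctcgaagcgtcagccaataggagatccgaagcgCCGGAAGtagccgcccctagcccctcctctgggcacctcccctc
Fis1: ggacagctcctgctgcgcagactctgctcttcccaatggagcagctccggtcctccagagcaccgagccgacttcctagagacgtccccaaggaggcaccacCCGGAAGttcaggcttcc
The windows of Opa1 (chr16:29579214-29579333, plus strand) and Pink1 (chr4:138326297-138326416, minus strand) have the NRF1 motif, in Opa1 as overlapping matches on the 2 strands that begin 59 and 58 bases before the start, and in Pink1 in the last 9 bases.
Opa1: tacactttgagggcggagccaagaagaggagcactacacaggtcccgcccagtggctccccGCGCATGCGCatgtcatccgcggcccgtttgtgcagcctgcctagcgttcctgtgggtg
Pink1: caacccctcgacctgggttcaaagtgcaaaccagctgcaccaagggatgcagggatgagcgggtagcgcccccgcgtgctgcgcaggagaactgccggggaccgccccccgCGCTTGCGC
The windows of Nrf1 and Dnm1l held none of the 5 motifs, and neither the estrogen-related receptor motif nor the E-box was found in any of the 14. A match is a run of letters and not a measured binding site. Set beside the age differences, Fis1, Tfam and Mfn1 with the ETS motif differed by 0.26, 0.07 and -0.03. Ppargc1a and Mfn2 with the cAMP response element core differed by 1.16 and 0.62, and Opa1 and Pink1 with the NRF1 motif by 0.26 and 0.24. Without 8-week replicates 1 and 2, Fis1, Tfam and Mfn1 differed by 0.00, 0.07 and -0.11. Ppargc1a and Mfn2 then differed by 0.76 and 0.04, and Opa1 and Pink1 by 0.07 and -0.19. A link between motif and age difference was not tested.

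Ppargc1a encodes PGC-1alpha, the coactivator that links fasting and energy demand to mitochondrial biogenesis and, in liver, to gluconeogenesis. Its level was 2.20, 0.48, 2.24 and 2.03 in the 8-week livers and 3.07, 1.92, 3.61 and 2.95 in the 80-week livers. Replicate 2 of the 8-week group stood far under the other 3, and 80-week replicate 2 lay within the range of the 8-week livers, so the groups overlapped although 3 of the 4 80-week livers were above every 8-week liver. The difference was 1.16 (SE 0.46, interval 0.11 to 2.20, unadjusted p = 0.0333, adjusted p = 0.329), a 2.23-fold higher mean with an interval of 1.08-fold to 4.59-fold. Without 8-week replicates 1 and 2 it was 0.76 (adjusted p = 0.650), and without replicate 2 alone 0.74, each over 1.5 times smaller.

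Both Ppargc1a probes lie on the minus strand of chromosome 5, at chr5:51848928-51848987 and chr5:51849419-51849478 (build mm9, as the array files give it), and the second is shown because it carries the same difference at another position of the transcript. Read in frame from its first base, it holds 1 stop codon, its last 3 bases, which are in capitals.
Ppargc1a probe 2: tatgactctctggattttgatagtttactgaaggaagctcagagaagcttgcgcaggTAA
This probe had levels of -0.16, -2.22, -0.28 and -0.65 in the 8-week and 0.76, -0.67, 1.13 and 0.30 in the 80-week livers, and a difference of 1.20 (SE 0.51). The 2 probes, 1.16 and 1.20, differed by 0.05. In each, 8-week replicate 2 was the lowest and 80-week replicate 3 the highest of the 8 arrays.

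Ppargc1b encodes PGC-1beta, the related coactivator that in liver also acts on genes of lipid synthesis and export. Levels in the 8-week livers were 0.06, -0.27, 1.53 and 2.09, and in the 80-week livers 1.89, 1.77, 3.33 and 2.82. The 8-week values formed a low pair, replicates 1 and 2, and a higher pair, and 8-week replicate 4 lay above 2 of the 80-week livers. The difference of 1.60 (SE 0.56, interval 0.33 to 2.86, unadjusted p = 0.0187, adjusted p = 0.298) was the largest of the 10 genes and its adjusted p the lowest. Without 8-week replicates 1 and 2 it was 0.64 (adjusted p = 0.718). A further probe, on a longer transcript of the gene on chromosome 18, had a difference of 1.49 (SE 0.57) with the same order of the group means.

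The spread over the 8 arrays was also widest for these genes. The SD of Ppargc1b was 1.23, above that of 97.3% of all genes tested, and that of Ppargc1a was 0.95, above 93.3%. The other 8 genes had SDs of 0.10 to 0.60, against a median of 0.41 over all genes. Taken within each array, the difference of Ppargc1b from Ppargc1a was 0.44 higher in the 80-week than in the 8-week livers, with SDs of 0.91 at 8 weeks and 0.50 at 80 weeks, and the groups overlapped. It turned to -0.12 without 8-week replicates 1 and 2.

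Nrf1, here nuclear respiratory factor 1 and not the similarly named Nfe2 family gene, encodes a factor that switches on genes of the respiratory chain and Tfam. It had levels of 1.34, 1.63, 0.93 and 0.76 at 8 weeks and 0.58, 0.90, 0.38 and 1.17 at 80 weeks. The mean was lower at 80 weeks, with 80-week replicates 2 and 4 inside the 8-week range and 8-week replicates 1 and 2 the highest of all 8. The difference was -0.41 (SE 0.26, interval -0.99 to 0.17, adjusted p = 0.475), and -0.09 without 8-week replicates 1 and 2. All 3 tested Nrf1 probes, at chr6:30103035-30103094, chr6:30094644-30094703 and chr6:30067078-30067137 on the plus strand (mm9), had differences of the same sign, from -0.44 to -0.26, and the fourth probe was above background on no array.

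Tfam encodes a factor that coats mitochondrial DNA and takes part in its transcription and copying. The 8-week livers had 2.24, 2.62, 2.25 and 2.59 and the 80-week livers 2.18, 2.60, 2.26 and 2.93. Both ages held low and high livers, and the highest and the lowest array were both from 80-week livers. The difference was 0.07 (SE 0.22, interval -0.43 to 0.56, adjusted p = 0.903), so differences of up to 1.47-fold upward or to 0.74 of the 8-week level lie within the interval, and it was 0.07 without 8-week replicates 1 and 2. The second probe gave -0.16 (SE 0.23), making Tfam the only gene of the 9 with more than 1 tested probe whose probes differed in sign. Within each array, the coactivators stood higher against Tfam in the 80-week livers, by 1.09 for Ppargc1a and 1.53 for Ppargc1b, with overlapping groups, and by 0.69 and 0.57 without 8-week replicates 1 and 2.

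Mfn1 encodes a mitofusin, a GTPase that tethers and joins outer mitochondrial membranes. Its levels were 2.49, 2.35, 2.55 and 2.63 in the 8-week and 2.33, 2.56, 2.49 and 2.54 in the 80-week livers. Ages were interleaved, and the SD over the 8 arrays, 0.10, was above that of only 0.581% of all genes tested. The difference was -0.03 (SE 0.16, interval -0.39 to 0.34, adjusted p = 0.953), and -0.11 without 8-week replicates 1 and 2. A dimmer Mfn1 probe, upstream on the transcript, was well above background in 3 of the 4 8-week and 0 of the 4 80-week livers and was not tested. With the 80-week livers, whose own mean was -3.36, raised to the background bound, its 8-week mean of -2.88 was 1.125-fold higher. This is not a firm lower limit. At -3.13, 8-week replicate 4 was itself under the lowest level called above background on its array, -2.93. The value compares means, carries no sampling error and stands beside the -0.03 of the bright probe.

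Mfn2 encodes the second mitofusin, which also tethers mitochondria to the endoplasmic reticulum. It had levels of 1.72, 1.24, 2.79 and 2.49 at 8 weeks and 2.32, 2.67, 2.78 and 2.98 at 80 weeks. Replicates 1 and 2 of the 8-week group lay under every 80-week liver, while replicates 3 and 4 lay among them. The difference was 0.62 (SE 0.34, interval -0.14 to 1.38, adjusted p = 0.417), a 1.54-fold higher mean, and it was 0.04 without 8-week replicates 1 and 2. The second tested probe gave 0.42 (SE 0.29). Relative to Mfn1 on the same array, Mfn2 was 0.65 higher in the 80-week livers, with SDs of 0.61 and 0.20 and overlapping groups, and 0.15 higher without 8-week replicates 1 and 2.

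Opa1 encodes the dynamin-like GTPase that joins inner membranes and holds cristae closed. Levels of 2.34, 1.97, 2.39 and 2.69 were measured at 8 weeks and of 2.53, 2.63, 2.70 and 2.56 at 80 weeks. The 80-week livers lay close together and 3 of the 8-week livers lay under all of them. The difference was 0.26 (SE 0.19, interval -0.18 to 0.69, adjusted p = 0.540), and 0.07 without 8-week replicates 1 and 2. Its bright probe spans 424 genomic bases, chr16:29629784-29630207 on the plus strand (mm9), for 60 bases of sequence, so it crosses an intron. A second probe nearer the end of the transcript, chr16:29654613-29654672, gave 0.62 (SE 0.29, unadjusted p = 0.0617), the widest gap between the probes of any of these genes, 0.36.

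**Figure D2:**
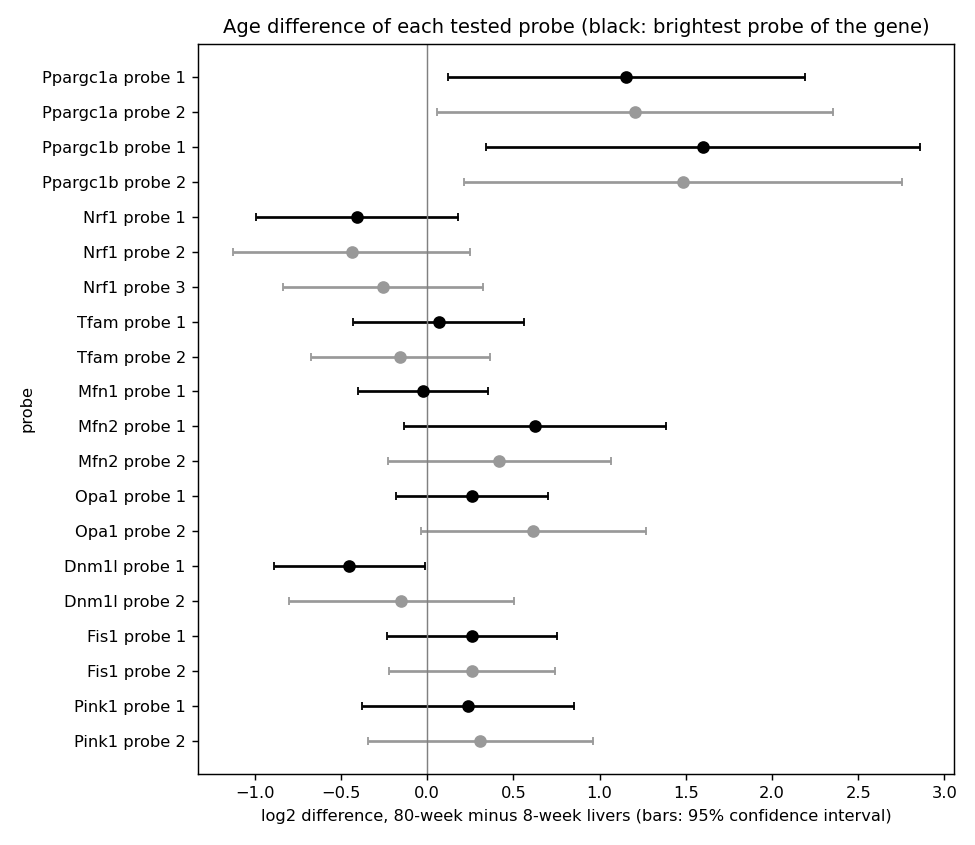
Age difference of each of the 20 tested probes, as log2 80-week minus 8-week (horizontal axis), with its 95% confidence interval from limma; black marks the brightest probe of each gene, which stands for the gene. The probes of Ppargc1a and Ppargc1b lie at 1.16 to 1.60 with intervals above 0, the other probe of Dnm1l has an interval that spans 0, and the Tfam probes lie on either side of 0.

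Over probes, 0 of the 20 tested passed the limma threshold after adjustment over all 25738 tested probes, of which 0.319% passed, and their adjusted p ranged from 0.295 to 0.954. At an unadjusted p under 0.05 there were 5, from Ppargc1a, Ppargc1b and Dnm1l, beside 14.1% of all tested probes. Of the 9 genes with more than 1 tested probe, 8 had differences of a single sign. Probes of a gene share the RNA of the same 8 samples and are not independent replicates.

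Dnm1l encodes DRP1, the dynamin-related GTPase that constricts and divides mitochondria. Its levels were 3.66, 3.77, 3.36 and 3.31 in the 8-week and 3.10, 3.20, 2.80 and 3.19 in the 80-week livers. Every 80-week liver lay under every 8-week liver, the closest being 80-week replicate 2 at 3.20 and 8-week replicate 4 at 3.31. Dnm1l was the only 1 of the 10 genes whose groups did not overlap, beside 3.75% of all genes with the 80-week group lower and 8.37% in either direction. The difference was -0.45 (SE 0.19, interval -0.88 to -0.02, unadjusted p = 0.0410, adjusted p = 0.345), which places the 80-week mean at 0.73 of the 8-week mean. It was -0.26 without 8-week replicates 1 and 2, the highest 2 arrays. With normexp background correction the groups overlapped, while with quantile and median scaling they did not. The bright probe lies at chr16:16312363-16312422 on the minus strand (mm9), and a dim one, chr16:16336911-16336970, above background on 6 of the 8 arrays, gave -0.15 (SE 0.29).

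Fis1 encodes an outer-membrane adaptor of fission and mitophagy. It had levels of 5.46, 5.03, 5.64 and 5.88 at 8 weeks and 5.64, 5.61, 5.84 and 5.96 at 80 weeks. The lowest 2 arrays were 8-week replicates 1 and 2, and the remaining 6 were mixed in age. The difference was 0.26 (SE 0.22, interval -0.23 to 0.75, adjusted p = 0.589), the second probe gave the same 0.26, and without 8-week replicates 1 and 2 the difference was 0.00. The second Fis1 probe spans 306 genomic bases, chr5:137441507-137441812 on the plus strand (mm9), and so also crosses an intron.

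Pink1 encodes the kinase that accumulates on depolarised mitochondria and recruits the ubiquitin ligase Parkin. In the 8-week livers its level was 5.17, 4.49, 5.68 and 5.70, and in the 80-week livers 5.45, 5.57, 5.44 and 5.53. The 80-week livers spanned little, with an SD of 0.06 against 0.57 at 8 weeks, and lay between the low and the high pair of 8-week livers. The difference was 0.24 (SE 0.27, interval -0.38 to 0.85, adjusted p = 0.699) and the second probe gave 0.31 (SE 0.29). Without 8-week replicate 2 it turned to -0.02, and without replicates 1 and 2 to -0.19 (adjusted p = 0.718).

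**Figure D3:**
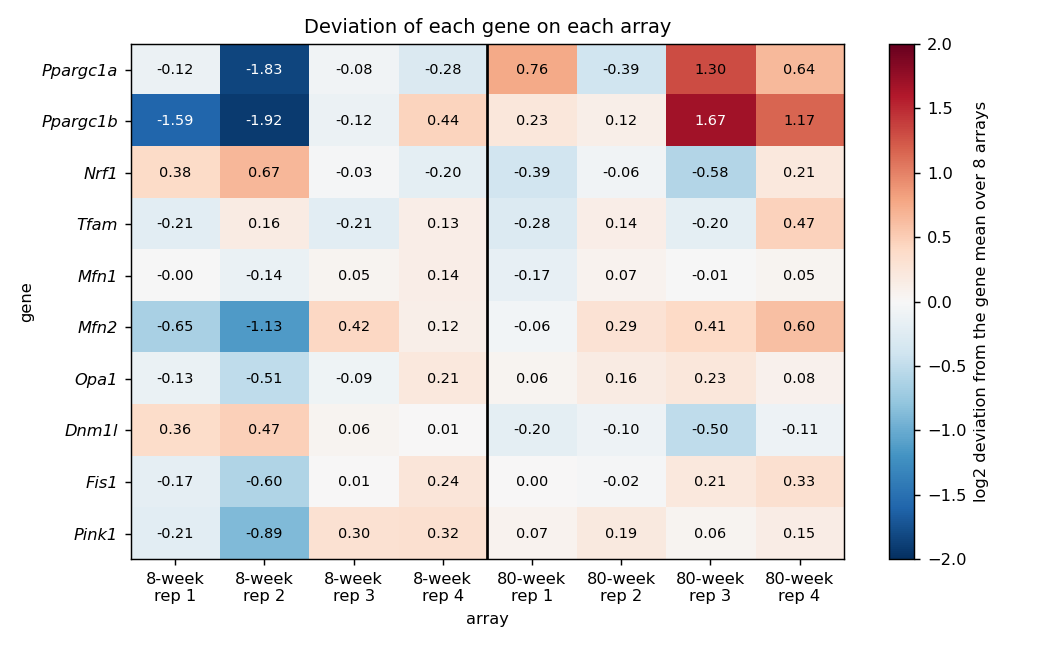
Deviation of each gene (rows) on each array (columns) from that gene's mean over the 8 arrays, in log2 units, printed in each cell and shown as colour from blue (low) to red (high); the black line parts the ages. The column of 8-week replicate 2 holds the lowest cell of 6 of the 10 genes and the highest cell of Nrf1 and Dnm1l, and the Mfn1 row stays within 0.17 of 0.

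Seen by array, 8-week replicate 2 had the lowest level of 6 of the 10 genes (Ppargc1a, Ppargc1b, Mfn2, Opa1, Fis1 and Pink1) and the highest level of 2 (Nrf1 and Dnm1l). The same array was the lowest for 35.1% and the highest for 20.2% of all genes tested. On that array the summed level of 11 tested hepatocyte markers, which include Alb and Hnf4a, was 3832 times the array's 75th percentile, the lowest of the 8, with 6173 to 7613 in the other 8-week and 5166 to 8499 in the 80-week livers. The summed level of 5 of 6 neutrophil markers was 151 on it, the highest of the 8, with 76.7 to 80.2 in the other 8-week and 25.0 to 122 in the 80-week livers. The brightest markers weigh most in such a sum. S100a9, S100a8 and Cxcr2 were each highest on this array, at 6.83, 4.94 and 0.63. Retnlg and Ly6g were not, at 2.04 and -1.69 against up to 3.07 and -0.46 elsewhere. For 4 of 6 monocyte markers it was 164, with 63.5 to 80.9 in the other 8-week livers and 51.5 to 133 in the 80-week livers. The part of these cell types in the levels of the 10 genes was not tested.

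Because fission and fusion genes act against each other, they were also set against each other within each array, which removes the array scaling. Relative to Dnm1l, Mfn2 was 1.08 higher in 80-week than in 8-week livers, Opa1 0.71 higher and Fis1 0.71 higher. Fis1 is itself a fission gene, so its pair does not set fusion against fission. In these 3 differences the 8-week SDs were 0.93, 0.50 and 0.58 and the 80-week SDs 0.34, 0.25 and 0.28. Around the mean of the 8 arrays, Mfn2 minus Dnm1l ran from -1.60 to 0.36 in the 8-week and from 0.15 to 0.91 in the 80-week livers. The groups overlapped in all 3, with 8-week replicates 1 and 2 the lowest 2 arrays in each. Without these arrays the 3 differences were 0.31, 0.33 and 0.26. Of the 9 pairs examined, the widest was Ppargc1b against Nrf1, 2.01 higher at 80 weeks with overlapping groups, and 0.73 without 8-week replicates 1 and 2.

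The other genes of the pathway were taken from 5 lists, which with the 10 genes held 146 tested genes. Of the 136 that are not among the 10, 0 passed the limma threshold in either direction, with 0.187 the lowest adjusted p. At an unadjusted p under 0.05 there were 20, or 14.7%, of which 13 were higher and 7 lower at 80 weeks, beside the 14.1% of all genes. Their median difference was 0.06.

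Among 28 tested nuclear regulators of biogenesis, Ppargc1a, Ppargc1b and Nrf1 included, 0 passed in either direction, 12 differences were above 0 and the median was -0.11, against 0.02 over all genes. At an unadjusted p under 0.05 there were 7 higher and 3 lower at 80 weeks. The list turned without 8-week replicates 1 and 2, with 16 of 28 above 0, a median of 0.10 against -0.06 over all genes, and 2 at an unadjusted p under 0.05. Esrrg, an orphan nuclear receptor that PGC-1 proteins coactivate, had -3.79, -5.51, -1.75 and -2.91 at 8 weeks and -2.05, -1.04, -0.09 and 0.45 at 80 weeks. Only 2 of the 4 8-week arrays were above background, 8-week replicate 3 lay above 80-week replicate 1, and the difference was 2.81 (SE 0.78, adjusted p = 0.217). Since it rests in part on signal not above background, its size is uncertain: it was 1.38 with normexp background correction and 1.65 without 8-week replicates 1 and 2. Ppara, the receptor that governs fatty acid oxidation in liver, was higher in every 80-week liver, at 4.40 to 5.55 against 3.35 to 4.20, a difference of 1.00 (SE 0.29, adjusted p = 0.227). Tfe3, a regulator of lysosomal and autophagy genes, was lower in every 80-week liver, at 3.39 to 4.51 against 4.57 to 4.95 (-0.77, SE 0.25, adjusted p = 0.274). Outside the naming rule, 2 genes were picked out after their values were seen. Pprc1, the remaining coactivator gene of the PGC-1 family, had a difference of -1.10 (adjusted p = 0.291), opposite in sign to Ppargc1a and Ppargc1b, and -0.55 without 8-week replicates 1 and 2. Lpin1, a phosphatidate phosphatase and partner of PGC-1alpha, had a difference of 2.43 (adjusted p = 0.291) and 0.93 without those arrays.

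Of 31 tested genes of mitochondrial DNA maintenance and transcription, Tfam included, 0 passed, 16 were above 0 and the median was 0.04, and 1 higher and 3 lower had an unadjusted p under 0.05. The 3 with the smallest p were lower at 80 weeks. Trmt10c, a subunit of mitochondrial RNase P, was at -0.04 to 1.82 in the 8-week and at -1.36 to -0.40 in the 80-week livers, without overlap (-1.72, SE 0.47, adjusted p = 0.210). The difference was -0.87 without 8-week replicates 1 and 2, its highest 2 arrays. Mterf1a, a terminator of mitochondrial transcription with a near-identical copy, Mterf1b, that is also on the array and was not tested, differed by -0.74 (SE 0.23, adjusted p = 0.262), and by -0.49 with normexp background correction. Primpol, a primase that restarts stalled replication, was above background in 3 of 4 8-week and 1 of 4 80-week livers and differed by -1.13 (SE 0.39, adjusted p = 0.291). With 3 of its 80-week values not above background this size is uncertain, and with normexp it was -0.23 (adjusted p = 0.568).

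The 27 tested genes of fusion and cristae, which include Mfn1, Mfn2 and Opa1, had the most lopsided signs of the 5 lists. Here 23 differences were above 0 and 0 passed the threshold, 1 having an unadjusted p under 0.05, and the median was 0.19. Without 8-week replicates 1 and 2 only 9 of the 27 were above 0 and the median was -0.11, against a share above 0 of 42.5% over all genes. Apool, of the cristae-organising MICOS complex, differed by 0.56 (SE 0.25, adjusted p = 0.355), the outer-membrane protein gene Slc25a46 by 0.46 (SE 0.20, adjusted p = 0.356) and Oma1, a protease that cuts OPA1, by 0.38 (SE 0.22, adjusted p = 0.440). These were 0.20, 0.19 and 0.21 without 8-week replicates 1 and 2, and Slc25a46 differed by 0.24 with the mean of its probes. Slc25a46 did not overlap between ages, at 4.13 to 4.37 against 3.39 to 4.12.

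Of 19 tested fission genes, Dnm1l and Fis1 included, 11 were above 0 and 0 passed, 3 having an unadjusted p under 0.05, and the median was 0.06. Stx17, a syntaxin of fission and autophagosome fusion, was higher in every 80-week liver (0.58, SE 0.21, adjusted p = 0.305), Akap1, an anchor of protein kinase A on mitochondria, differed by 0.57 (SE 0.25, adjusted p = 0.355) and Mtfr1l by 0.46 (SE 0.24, adjusted p = 0.399). Stx17 differed by 0.34 and Mtfr1l by 0.07 without 8-week replicates 1 and 2, and with the mean of its probes Stx17 differed by 0.36 and Akap1 by 0.29. Among 42 tested mitophagy genes, Pink1 included, 27 were above 0 and 0 passed, 5 having an unadjusted p under 0.05, and the median was 0.10. The autophagy genes Atg7, an activating enzyme of the conjugation of LC3, and Ulk1, the initiating kinase, were higher in every 80-week liver. Atg7 had 1.96, 1.87, 2.60 and 2.68 at 8 weeks and 2.94, 3.22, 3.21 and 3.34 at 80 weeks (0.90, SE 0.24, adjusted p = 0.187). Ulk1 differed by 0.82 (SE 0.28, adjusted p = 0.292) and Optn, a cargo receptor of damaged mitochondria, by 0.97 (SE 0.37, adjusted p = 0.309). The differences were 0.53 for Atg7, 0.37 for Ulk1 and 0.27 for Optn without 8-week replicates 1 and 2. Without 8-week replicates 1 and 2, 16 of the 42 mitophagy genes and 8 of the 19 fission genes were above 0, against 42.5% of all genes. The list medians turned to -0.0686 and -0.025, against -0.06 over all genes. In each list 1 gene then had an unadjusted p under 0.05, beside 9.02% of all genes.

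**Figure D4:**
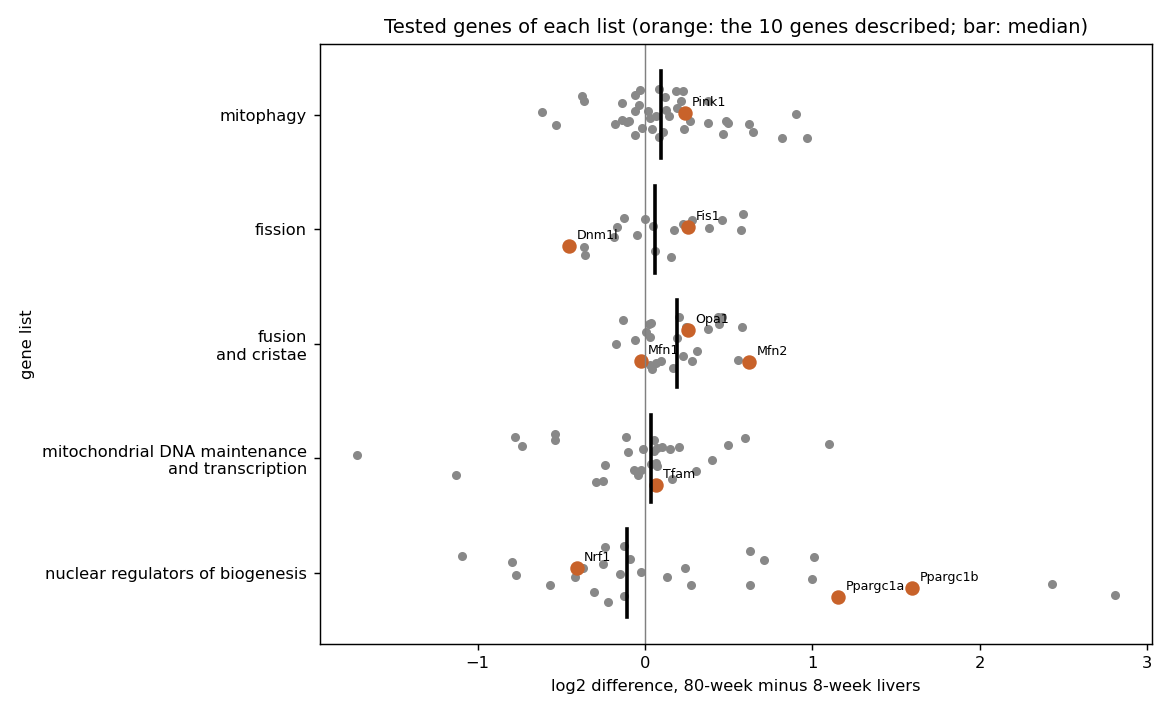
Age difference of each tested gene of the 5 lists, as log2 80-week minus 8-week (horizontal axis); grey points are genes, orange points with names are the 10 genes described and the bar is the median of the list. Ppargc1a and Ppargc1b lie at 1.16 and 1.60 in a list with a median of -0.11, and the fusion and cristae list, at 0.19, has the highest median. The order turns without 8-week replicates 1 and 2, with medians of 0.10 and -0.11 for these lists.

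The profile of Ppargc1a over the 8 arrays was compared with those of 12718 other tested genes, each centred on its own mean, by the root mean square difference. The closest were Hand2os1, an antisense RNA beside Hand2, at 0.30, Dcaf6, a substrate receptor of a ubiquitin ligase, at 0.33, Ggn, a gene of germ cells, at 0.33, Abcg5, a sterol exporter, at 0.33 and Zfp385b, a zinc finger gene, at 0.38. The median over all of these genes was 0.92. Abcg5 had 4.27, 3.44, 4.71 and 5.11 in the 8-week and 5.47, 4.72, 5.84 and 5.67 in the 80-week livers, a difference of 1.04 (SE 0.38, adjusted p = 0.305). The age differences of the other 4 were 0.91 to 1.17, with adjusted p from 0.287 to 0.339. Leaving out 8-week replicates 1 and 2, the differences were 0.51 for Abcg5, 0.62 for Hand2os1 and 0.36 for Dcaf6, while Zfp385b and Ggn came to 0.78 and 0.71. Ggn, at -4.21 to -2.10, lay near the lowest levels called above background on these arrays, -3.86 to -2.70, and differed by 0.31 with normexp background correction. Of the other 9 genes described, Mfn2 was the closest to Ppargc1a, at 0.62 and rank 909, followed by Ppargc1b at 0.68 and rank 1655, and Nrf1 was the farthest at 1.21. Likeness of profiles over 8 arrays, with 8-week replicate 2 low in each, is a description of these samples.

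**Figure D5:**
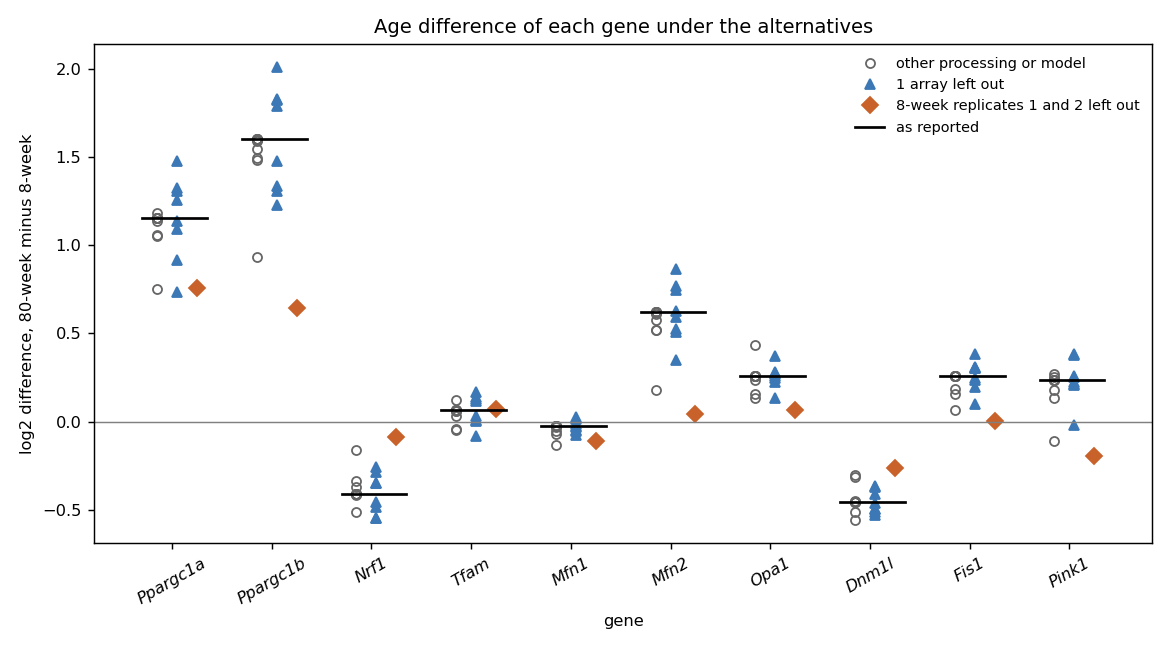
Age difference of each gene, as log2 80-week minus 8-week (vertical axis), as reported (black bar), under other processing or another model (grey circles), with 1 array left out (blue triangles) and without 8-week replicates 1 and 2 (orange diamonds). Under the alternatives run, Ppargc1a is never under 0.74, Ppargc1b never under 0.64 and Dnm1l never above -0.26, Mfn2 and Fis1 come to 0.04 and 0.00 at the diamonds, and Tfam, Mfn1 and Pink1 cross 0.

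Other cell types were followed through 10 lists of markers, and 0 genes of any of them passed the limma threshold. At an unadjusted p under 0.05 there were 7 of the 50 tested markers, beside 14.1% of all genes. The monocyte marker Chil3 (-3.73, SE 0.80, adjusted p = 0.117) and the stellate cell marker Reln (1.05, SE 0.24, adjusted p = 0.135) did not overlap between ages. Chil3 was at 4.01 and 5.70 on 8-week replicates 1 and 2, against 2.42 and 1.47 on replicates 3 and 4. Of the endothelial markers, Lyve1 (-1.09) and Pecam1 (-0.62) were lower and Stab2 (0.465, unadjusted p = 0.0698) higher without overlap, while Kdr, Stab1 and Clec4g overlapped. Over all genes, 8.37% did not overlap in either direction. Lrat (1.34), Cd2 (1.22) and Cfd (3.47), markers of stellate, T and fat cells, overlapped, and Cfd was above background on 1 of the 4 8-week arrays. Cfd was at 1.64 on 8-week replicate 2 and at -5.25 to -3.59 on the other 8-week arrays. These named markers do not speak for their lists. Differences above and below 0 numbered 3 and 3 for stellate cells, with a median of 0.07, and 1 and 3 for monocytes. They numbered 3 and 1 for adipocytes, and 5 and 0 for B and T cells. The defining hepatocyte markers were bright on all arrays, with 11 of 12 on the array and tested. Of these 11, 9 had a difference above 0, and the median was 0.07. Without 8-week replicates 1 and 2, 1 of the 11 was above 0 and the median was -0.21, against -0.06 over all genes. Summed levels ranged in 8-week and 80-week livers, respectively, from 52.8 to 160 and from 65.3 to 252 for 6 Kupffer cell markers, from 60.5 to 104 and from 62.6 to 108 for 6 sinusoidal endothelial markers, and from 130 to 196 and from 172 to 247 for 6 stellate cell markers. They ranged from 9.92 to 26.7 and from 8.26 to 15.9 for 2 bile duct markers, from 2.10 to 4.99 and from 4.02 to 5.56 for 5 B and T cell markers, and from 20.1 to 39.8 and from 17.9 to 27.5 for 4 adipocyte markers. The only tested striated muscle marker, Tnnt3, had a log2 level of 3.67 on 8-week replicate 3 and of -2.26 to -1.59 elsewhere. Krt19, Adipoq, Ucp1 and Myh6, which define bile duct, fat, brown fat and heart cells, were too dim to be tested. The part of these cell types in the results was not tested.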

How the data were processed

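Total RNA of 8 livers (4 at 8 weeks, 4 at 80 weeks) was measured on 1-colour arrays. The deposited scanner files give a processed intensity per spot, which Feature Extraction 10.7.3.1 made by subtracting background, per the file headers, although version 9.1 is named in the submitters' processing notes. In the authors' deposited table, every intensity lay within 1% of the scanner's processed value (100% of 56605 probes per array), with column medians of 14.1 to 27.9, so it is on the linear scale and carries no scaling between arrays. It served as an alternative.

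Processed signals were taken as log2, spots the software marked as outliers (59 to 97 per array) were left out, repeated spots were averaged and the 75th percentile of the array, 154.7 to 352.8 intensity units, was subtracted. Probes well above background on 4 or more of the 8 arrays were tested, and a gene is its brightest tested probe. Ages were compared with limma 3.58.1 (lmFit and eBayes, R 4.3.3), Benjamini-Hochberg adjusted over all genes or probes. The number of arrays limits the precision. The script was tested on simulated data. A probe above background on no array of a group is given as a bound. For it, the dim group takes on each array its own level or the lowest level called above background, whichever is higher. The other group keeps its own levels, also where they are not above background, and the means are compared.

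The 10 genes, the lists and the 2 arrays left out together were chosen with earlier results of these data known. Named besides the 10 genes are, per list, the 3 genes with the smallest p, and the 5 genes with an official-looking symbol whose profile was closest to that of Ppargc1a. Of 17565 genes, 13828 matched a RefSeq symbol (GRCm38.p6). Promoter sequences are from RefSeq, build GRCm38.p6, and probe positions from the array files, build mm9; the exon or untranslated part under each probe was not annotated here. Alternatives were normexp background correction (offset 50), quantile and median scaling, other filters, the mean of a gene's probes, retained outlier spots, a trended robust prior, array weights, the deposited table, a block for the replicate number, and omitted arrays.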

Additional observations from a re-analysis of the deposited data

Results flagged for a closer look

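Among 60 groups of 4 arrays examined (30 named genes at each age), 2 (3.33%) held an array far from the other 3, where chance gives about 5%. That 5% is for independent groups. These share the same 8 arrays, and many of the genes were picked by p or by profile, so the shares are not strictly comparable. Ppargc1a stood at 0.48 on 8-week replicate 2, against 2.03 to 2.24 on the other 3 8-week arrays. Primpol stood at -2.78 on 80-week replicate 2, against -4.31 to -4.20 on the other 3 80-week arrays, and that was the only 80-week array on which it was above background.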

How the results depend on the processing

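Over 20 alternatives the 10 genes gave 200 differences, of which 192 kept their sign, and 0 passed the threshold (lowest adjusted p = 0.0841). That count overstates how far the signs were probed. With no filter, the stricter filter, retained outlier spots, the trended robust prior or the replicate block, the differences equalled those reported. The deposited table holds nearly the same intensities. The 8 that changed sign were of Tfam, Pink1 and Mfn1. Tfam gave -0.0385 with median scaling, -0.0449 with the mean of its probes and -0.0791 without 80-week replicate 4. Pink1 gave -0.11 with array weights, -0.19 without 8-week replicates 1 and 2, and -0.0202 without 8-week replicate 2. With 1 array left out, differences ranged from -0.0791 to 0.17 for Tfam, -0.0202 to 0.38 for Pink1, -0.0754 to 0.0262 for Mfn1, 0.74 to 1.48 for Ppargc1a, 1.22 to 2.01 for Ppargc1b, -0.53 to -0.36 for Dnm1l and 0.35 to 0.87 for Mfn2, and the median of the 10 from 0.12 to 0.38. That median was 0.09 with array weights. The replicate numbers were not taken as pairs, since deviations of same-numbered arrays correlated at 0.0256 for number 1 and at 0.104 to 0.141 for the other 3, and each had to be over 0.1. As a hint from the data, 3 of 4 8-week arrays lay closest to their own number. By the array names, the replicate number is also the position along the slide row, so pairing and position cannot be told apart. With the replicate number as a block, adjusted p was 0.0896 for Ppargc1a and 0.0841 for Ppargc1b, and 70 of all genes passed. Of all genes, 63 passed as reported, 21 with probes above background on all 8 arrays (fewer tested), 172 with array weights, 14 without 8-week replicates 1 and 2, and 27 to 77 with 1 array left out, the lowest counts being 27 without 8-week replicate 1, 38 without 80-week replicate 3 and 39 without 80-week replicate 4. Median scaling moved the median of all genes by -0.10 and the calls from 58 higher and 5 lower (92.1% higher) to 64 higher and 13 lower (83.1%). The causes were not tested. Esrrg, Primpol and Ggn were not tested under the stricter filter, and the mean of probes was not run for the list counts.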
